A study of Homo sapiens with 6 samples.

Results

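The long non-coding RNAs NORAD, OIP5-AS1, DANCR and CRNDE, with TUG1, form a set of RNAs with described roles in RNA stability, translation or chromatin, and were picked by gene name from a table of 35036 genes. Of the 5 names, 4 had a row in the table and all 4 of these passed the filter on low counts. TUG1 itself was not analysed here. The libraries came from U-2OS cells, a human osteosarcoma line, in which every sample had received actinomycin D, a blocker of RNA synthesis. In 3 libraries the cells were labelled SiSFPQ, transfected with an siRNA against SFPQ, and in the other 3 they were labelled SiCtrl, with a control siRNA. No dose or time of actinomycin D was given in the sources used here, there was no untreated arm, and the labels do not say whether replicates were separate cultures, so p-values measure only the spread between these samples.

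Long non-coding RNAs of this kind are described as acting as RNA molecules and not as templates for protein. TUG1 is an exception in RefSeq, which classes it as protein coding. NORAD is a cytoplasmic RNA that binds the Pumilio proteins, repressors of mRNA stability and translation. OIP5-AS1, also called cyrano, carries a highly complementary site for the microRNA miR-7 and promotes its decay. DANCR is a host of a small nucleolar RNA, known for holding back the differentiation of progenitor cells. CRNDE, raised in colorectal tumours, is transcribed beside the homeobox gene IRX5, and TUG1 has been tied to the chromatin repressor complex PRC2.

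The sequences that set these RNAs apart were read from the reference annotation. The Pumilio motif, written TGTANATA in DNA letters, was found 15 times in the GENCODE 29 transcript of NORAD (GRCh38, chromosome 20, minus strand, 1 exon of 5339 bases) and 1 time on its reverse strand, with overlapping matches counted. The form TGTATATA made up 10 of the 15 matches, TGTAAATA 4 and TGTACATA 1. Below are 4 windows of 30 bases, chosen as the first match, one of each of the other forms and the last of the closely spaced pairs, with the motif in capitals. They lie at chr20:36050182-36050211, chr20:36049702-36049731, chr20:36049492-36049521 and chr20:36047659-36047688, counted on GRCh38 and written 5′ to 3′ on the minus strand.
NORAD motif 1: tggaaggcctgTGTATATAatatgaaaaag
NORAD motif 3: aaatcacatttTGTAAATAcctttttgtta
NORAD motif 5: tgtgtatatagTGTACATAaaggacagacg
NORAD motif 13: tgtgtatatagTGTATATAagcggacatag
Matches 4 and 5, 9 and 10, and 12 and 13 each started 9 bases apart, and the remaining gaps ran from 101 to 1006 bases.

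The longest OIP5-AS1 transcript (8829 bases) held 1 such motif, that of TUG1 (7469 bases) 2, and those of DANCR (904 bases) and CRNDE (2601 bases) 0. Among GENCODE 29 long non-coding transcripts within 10% of the length of NORAD, 38.4% of 294 held at least 1 motif and 3, NORAD included, held 15 or more. No further one of all 56070 such transcripts reached 15, and the highest count was 16. A match describes letters and is not a measured binding site.

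**Figure D1:**
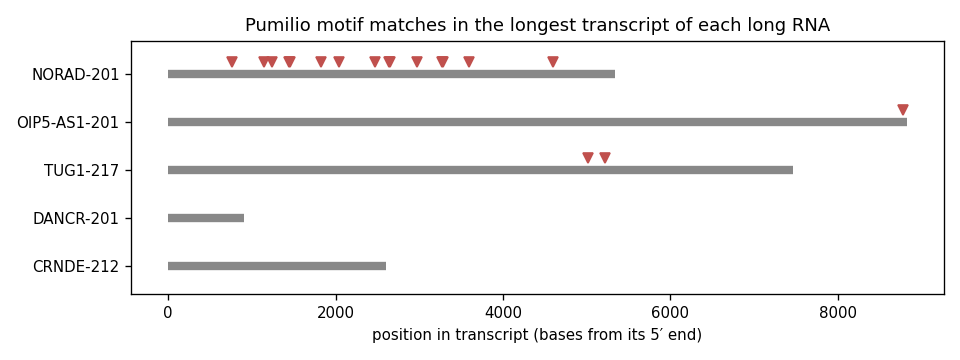
Positions of the Pumilio motif (triangles) along the longest GENCODE 29 transcript of each RNA (grey bars), in bases from the 5′ end. NORAD carries 15 matches, spread between bases 761 and 4599, against 1 in OIP5-AS1, 2 in TUG1 and 0 in DANCR and CRNDE.

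OIP5-AS1 held 3 matches to the seed of miR-7, its bases 2 to 8, whereas NORAD and TUG1 held 0 and DANCR and CRNDE 1 each in their longest transcripts. In the mature microRNA printed first (RefSeq, GRCh38.p14, chr9:83969811-83969834, minus strand, with the same sequence at chr19:4770700-4770723, plus strand) the seed is in capitals. In the OIP5-AS1 sites (plus strand, chr15:41298417-41298436, chr15:41300574-41300599 and chr15:41305860-41305879) capitals mark bases complementary to the microRNA in the seed match and in the longest run at the other end of the microRNA.
hsa-miR-7-5p: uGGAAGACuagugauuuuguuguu
OIP5-AS1 site 1: tttaaaaaaaatGTCTTCCA
OIP5-AS1 site 2: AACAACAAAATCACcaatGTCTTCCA
OIP5-AS1 site 3: tgaatatagtttGTCTTCCc
The second site paired with 14 bases at the 3′ end of the microRNA besides the seed match and the base next to it, leaving 4 bases of the site in between, while no such run was found beside the other 2 sites. The run of 14 bases was found in transcripts of 5 genes of GENCODE 29. Of 55 long non-coding transcripts within 10% of the length of OIP5-AS1, 50.9% held at least 1 seed match. The microRNA itself was not measured.

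Promoters are shown for the 2 members whose counts changed most, taken from RefSeq (GRCh38.p14) as 250 bases before to 50 after a start of the gene. For DANCR, NORAD, CRNDE and TUG1 that start is the first base of the RefSeq gene, and for OIP5-AS1 it is position 41283990, which lies 1293 bases inside the RefSeq gene, so an upstream start of OIP5-AS1 is not covered. All 5 named genes had an entry. The CCAAT box and its reverse complement, in capitals below, occurred 5 times before and just after the start of DANCR (chr4:52712144-52712443, plus strand) and 2 times at OIP5-AS1 (chr15:41283740-41284039, plus strand).
DANCR promoter: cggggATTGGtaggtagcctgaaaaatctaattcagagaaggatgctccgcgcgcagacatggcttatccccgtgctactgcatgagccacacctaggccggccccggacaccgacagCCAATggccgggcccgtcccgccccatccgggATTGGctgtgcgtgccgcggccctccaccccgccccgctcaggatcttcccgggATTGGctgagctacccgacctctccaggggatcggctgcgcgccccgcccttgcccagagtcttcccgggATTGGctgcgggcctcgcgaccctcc
OIP5-AS1 promoter: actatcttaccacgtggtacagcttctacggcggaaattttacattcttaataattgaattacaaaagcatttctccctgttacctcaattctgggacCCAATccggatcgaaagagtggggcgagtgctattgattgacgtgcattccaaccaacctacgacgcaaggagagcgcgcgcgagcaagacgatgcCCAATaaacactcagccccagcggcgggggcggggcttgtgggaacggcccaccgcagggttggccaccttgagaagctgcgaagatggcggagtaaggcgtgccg
At least 1 CCAAT box on either strand occurs in 34.6% of 35116 promoters of this length and 5 or more in 0.359%. TUG1 had 2, CRNDE 1 and NORAD 0. The GC box GGGCGG, on either strand, occurred 3 times at DANCR and CRNDE, 4 times at TUG1, 1 time at OIP5-AS1 and 0 times at NORAD (45.0% of all promoters hold it). The E-box CACGTG, a palindrome, occurred 1 time each at NORAD, OIP5-AS1 and TUG1 and 0 times at DANCR and CRNDE (7.26% of all promoters), and TATAAA at none of the 5 (11.5% of all promoters, either strand). The GC content of these windows was 63.0% at NORAD, 54.3% at OIP5-AS1, 67.7% at TUG1 and DANCR and 80.0% at CRNDE, where the median of all promoters was 58.7%.

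The comparison of SiSFPQ with SiCtrl asked how these RNAs differed once SFPQ, a nuclear RNA-binding protein, was targeted under transcriptional stress. DANCR, CRNDE and NORAD rose and OIP5-AS1 fell, so the set moved in opposite directions. Of the 4 members tested, 3 were called higher and 1 lower at an adjusted p under 0.05, where the background was 24.5% of 6325 tested genes higher and 24.0% lower. The CPM ranges of the groups did not overlap for any of the 4 members, as for 54.0% of tested genes. Changes of this kind were common in the table, and 48.4% of tested genes were called in either direction. SFPQ was not analysed here, so the groups rest on the labels. Library totals of the table were 1298658 to 1599566 counts in SiSFPQ and 1385532 to 1533974 in SiCtrl, and 98.2% to 98.3% of them lay in tested genes. The table holds mainly non-coding genes, so these totals are not the sequencing depth. Levels are given as CPM, counts scaled to a common total of tested counts after TMM adjustment. A rise or fall is therefore relative to the other tested genes and not a change in the amount of RNA per cell. With no untreated arm, a different level before actinomycin D and a different loss after it cannot be told apart. In RNA of whole cultures, fewer cells with an RNA and less of it per cell cannot be told apart.

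DANCR (ENSG00000226950, chromosome 4, 52712325 to 52721683, plus strand) was the most abundant member, 46th among tested genes by mean level. Its level was 3724, 3521 and 3644 CPM in the 3 SiSFPQ libraries and 1929, 1926 and 1858 CPM in the 3 SiCtrl libraries. Every SiSFPQ library lay far above every SiCtrl library, and the replicates of a group differed little. The means were 3630 ± 102 CPM in SiSFPQ and 1904 ± 40.0 CPM in SiCtrl (SD, n = 3 each), a fold of 1.91. The log2 fold change was 0.93 ± 0.05 (SE; edgeR quasi-likelihood test, adjusted p = 2.2e-91), and 85.2% of tested genes changed by less in either direction.

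Within the locus of DANCR, GENCODE 29 places the microRNA gene MIR4449 (52712682 to 52712747) and the small nucleolar RNA gene SNORA26 (52713249 to 52713370). Both lie on the plus strand and share 0 bases with the GENCODE 29 exons of DANCR. The 66 bases of MIR4449 and the 122 of SNORA26 lie within the listed span of DANCR, whose listed exonic length exceeds that span. Whether counted reads of DANCR came from these stretches was not tested. SNORA26 is a small nucleolar RNA of the H/ACA class, which guide pseudouridine formation in RNA. Neither small RNA was measured. The processed pseudogene AC104066.1 on the minus strand shares 271 bases with the GENCODE 29 exons of DANCR.

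CRNDE (ENSG00000245694, chromosome 16, 54844649 to 54931354, minus strand) also rose, from a level that ranked 792nd among tested genes, far below the other members. It had 234, 218 and 201 CPM in SiSFPQ libraries, against 171, 152 and 165 CPM in SiCtrl libraries. The lowest SiSFPQ library still lay above the highest SiCtrl library. The means were 218 ± 16.7 CPM in SiSFPQ and 162 ± 10.0 CPM in SiCtrl (SD, n = 3 each), and the log2 fold change was 0.42 ± 0.08 (SE; edgeR, adjusted p = 3.0e-06). The raw counts were 307, 350 and 311 in SiSFPQ and 240, 223 and 220 in SiCtrl. RefSeq places CRNDE within 54918863 to 54928886, so the listed span of 86706 bases covers more than that gene, and it contains 493 exonic bases of the coding gene IRX5 on the other strand. IRX5 was not analysed here, and the part of its reads in the CRNDE counts was not tested.

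NORAD (ENSG00000260032, chromosome 20, 36042280 to 36050961, minus strand) showed the smallest change of the 4. Its level was 1630, 1623 and 1657 CPM in SiSFPQ libraries and 1341, 1358 and 1421 CPM in SiCtrl libraries. Every SiSFPQ library lay above SiCtrl replicate 3, the highest SiCtrl library. The means were 1637 ± 18.1 CPM in SiSFPQ and 1373 ± 42.0 CPM in SiCtrl (SD, n = 3 each), a fold of 1.19. The log2 fold change was 0.25 ± 0.05 (SE; edgeR, adjusted p = 8.4e-07), and 34.5% of tested genes changed by less, so NORAD moved less than the typical tested gene, whose median absolute log2 fold change was 0.39. Coding targets of the Pumilio proteins were not analysed here.

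OIP5-AS1 (ENSG00000247556, chromosome 15, 41283958 to 41321983, plus strand) was the member that fell. It had 1072, 1027 and 1080 CPM in SiSFPQ libraries, against 1952, 1962 and 1771 CPM in SiCtrl libraries. All SiSFPQ libraries lay well below the lowest SiCtrl library, SiCtrl replicate 3. The means were 1060 ± 28.4 CPM in SiSFPQ and 1895 ± 108 CPM in SiCtrl (SD, n = 3 each), a fold of 0.559. The log2 fold change was -0.84 ± 0.05 (SE; edgeR, adjusted p = 5.8e-64), and 81.5% of tested genes changed by less. In GENCODE 29 the exons of OIP5-AS1 share 470 bases with the coding gene OIP5 on the other strand and 327 with the read-through coding gene AC087721.2 on the same strand. The listed span of OIP5-AS1 contains 787 exonic bases of OIP5. OIP5 was not analysed here, and the part of reads from either gene in this fall was not tested.

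**Figure D2:**
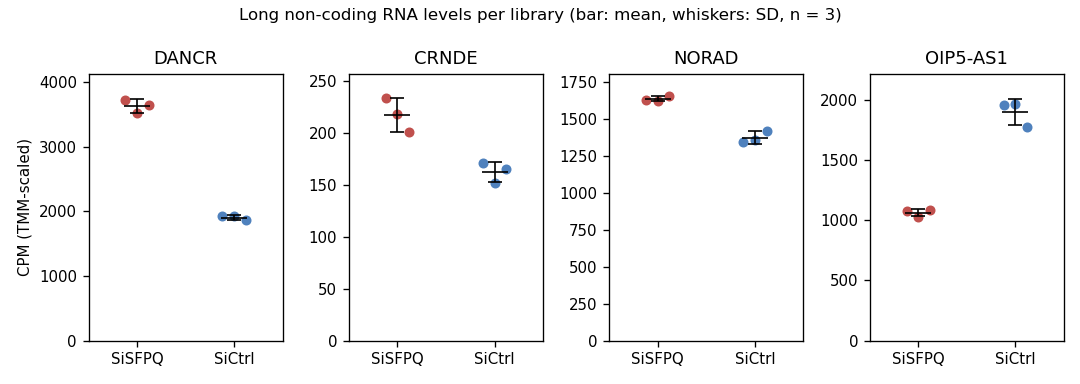
TMM-scaled CPM of DANCR, CRNDE, NORAD and OIP5-AS1 in each library (points), with SiSFPQ left of SiCtrl, on linear axes from 0 that differ between panels. Bars and whiskers are mean ± SD over 3 libraries. DANCR, CRNDE and NORAD lie higher and OIP5-AS1 lower in SiSFPQ with no overlap, as for 54.0% of tested genes in either direction.

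**Figure D3:**
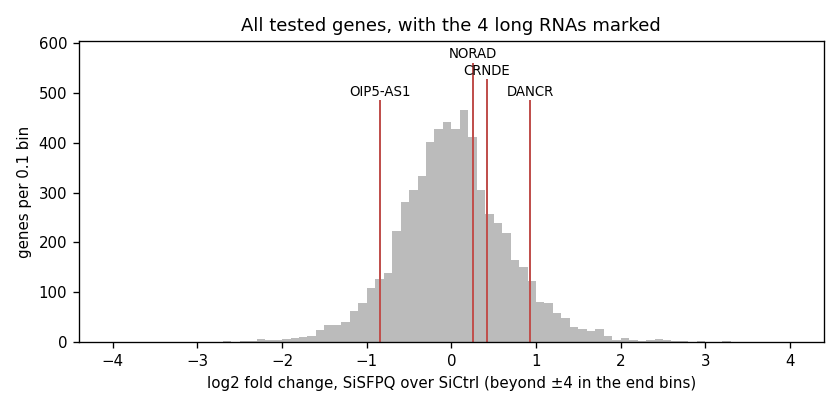
Log2 fold changes of SiSFPQ over SiCtrl for 6325 tested genes in bins of 0.1 (grey), with red lines at the members. NORAD at 0.25 and CRNDE at 0.42 lie within the bulk of the genes, and DANCR at 0.93 and OIP5-AS1 at -0.84 on its flanks.

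Per kilobase of listed exonic length, DANCR had the highest level in SiSFPQ and NORAD the highest in SiCtrl. In SiSFPQ, DANCR had 357 ± 10.0, NORAD 288 ± 3.18, OIP5-AS1 47.4 ± 1.27 and CRNDE 7.68 ± 0.589 CPM per kb (SD, n = 3). In SiCtrl the same members had 187 ± 3.93, 241 ± 7.38, 84.7 ± 4.81 and 5.73 ± 0.354 CPM per kb. Neighbours in either order differed by more than their SDs. The listed exonic lengths were 10179 bases for DANCR, over a listed span of only 9359, and 5689, 22370 and 28358 bases for NORAD, OIP5-AS1 and CRNDE. With the GENCODE 29 exonic lengths of 2285, 5339, 12673 and 5846 bases in the same order, DANCR came first in both groups, at 1588 ± 44.7 CPM per kb in SiSFPQ and 833 ± 17.5 in SiCtrl, above NORAD at 307 ± 3.39 and 257 ± 7.87. The place of NORAD above DANCR in SiCtrl therefore held only with the listed lengths, of which that of DANCR exceeds its listed span. The same counts were divided by both lengths and were not remade over the GENCODE 29 exons. Counts from bases outside those exons would raise the values per kb, and which order holds was not tested.

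Ratios of 2 members in the same library do not depend on library scaling, and all 6 pairs were compared. DANCR and OIP5-AS1 had nearly equal counts in SiCtrl and parted in SiSFPQ. Their log2 ratio was 1.80, 1.78 and 1.75 in SiSFPQ libraries and -0.02, -0.03 and 0.07 in SiCtrl libraries, a difference of 1.77. The order of NORAD and OIP5-AS1 was turned round, with log2 ratios of 0.60, 0.66 and 0.62 in SiSFPQ, where NORAD had more counts, and -0.54, -0.53 and -0.32 in SiCtrl, where OIP5-AS1 had more. DANCR over NORAD differed by 0.68, with means of 1.15 ± 0.04 in SiSFPQ and 0.47 ± 0.07 in SiCtrl. CRNDE over OIP5-AS1 differed by 1.26, from means of -2.28 ± 0.12 in SiSFPQ and -3.54 ± 0.14 in SiCtrl. DANCR over CRNDE differed by 0.51, with means of 4.06 ± 0.10 in SiSFPQ and 3.55 ± 0.10 in SiCtrl.

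For these 5 pairs the groups did not overlap, and a two-sided exact permutation test gave p = 0.1, the smallest that 3 against 3 libraries allow, or 0.12 after Benjamini-Hochberg adjustment over the 6 pairs. CRNDE over NORAD was the exception, with -2.80, -2.89 and -3.04 in SiSFPQ and -2.97, -3.16 and -3.11 in SiCtrl. These groups overlapped, with a difference of 0.17 and an exact permutation p = 0.2 (adjusted p = 0.20). With 3 against 3 libraries no pair could pass 0.05 in this test, so it does not settle whether the rises of CRNDE and NORAD differ in size. The difference was 0.11 without SiSFPQ replicate 1.

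**Figure D4:**
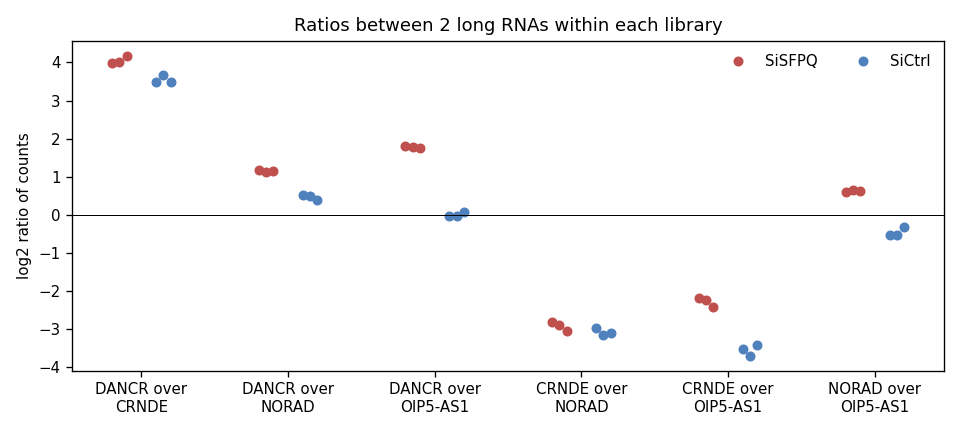
Log2 ratio of raw counts (plus 0.5) between 2 members in each library, SiSFPQ in red left of SiCtrl in blue. The groups are apart for 5 pairs, by up to 1.77 for DANCR over OIP5-AS1, and overlap for CRNDE over NORAD.

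Together the 4 members took 0.672%, 0.641% and 0.659% of all counts in SiSFPQ libraries, against 0.517%, 0.518% and 0.503% in SiCtrl libraries. The summed share was thus higher in every SiSFPQ library, by 0.144 percentage points on average (exact permutation test, two-sided, p = 0.1, the smallest possible here). The share of DANCR alone was higher by 0.181 points, more than the sum. NORAD was higher by 0.0324 and CRNDE by 0.00626 points, and the difference for OIP5-AS1 was -0.0757 points. The makeup of the sum also differed. DANCR made up 55.9%, 55.1% and 55.4% of the members' counts in SiSFPQ and 35.8%, 35.7% and 35.6% in SiCtrl, and OIP5-AS1 16.1%, 16.1% and 16.4% in SiSFPQ and 36.2%, 36.3% and 34.0% in SiCtrl. NORAD held 24.5% to 25.4% in SiSFPQ and 24.9% to 27.2% in SiCtrl, ranges that overlapped.

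Genes listed over the same bases moved with the members. How reads were assigned to strands was not given in the sources used here. At DANCR, ENSG00000286161 on the minus strand (52712713 to 52722377) and ENSG00000293643 on the plus strand (52712394 to 52866821) held 5494 and 5510 counts over all libraries, close to each other in each library. ENSG00000286161 had 825, 813 and 819 CPM in SiSFPQ and 430, 455 and 425 CPM in SiCtrl, a log2 fold change of 0.91 ± 0.06 (SE; edgeR, adjusted p = 2.8e-52). ENSG00000293643 had a log2 fold change of 0.87 ± 0.06 (SE; edgeR, adjusted p = 2.2e-48). As a share of DANCR counts, ENSG00000286161 stood at 22.2% to 23.1% in SiSFPQ and at 22.3% to 23.6% in SiCtrl, ranges that overlapped. How many reads the 3 genes share was not tested, so the 3 rises are given side by side and not as separate observations.

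At NORAD, 2 genes on the opposite strand were tested, and both rose. The listed span of ENSG00000303734 shares 8681 bases with that of NORAD. How many reads these genes share with NORAD was not tested, so their rises are not given as separate observations. ENSG00000303734 (36032392 to 36050960) had 328, 351 and 350 CPM in SiSFPQ and 229, 247 and 247 CPM in SiCtrl, a log2 fold change of 0.51 ± 0.07 (SE; edgeR, adjusted p = 1.0e-11). Its counts were 20.1%, 21.6% and 21.1% of those of NORAD in SiSFPQ and 17.1%, 18.2% and 17.4% in SiCtrl, ranges that did not overlap, though this difference was not tested. ENSG00000303769 (36050290 to 36052568), a low gene over the NORAD start, averaged 44.1 ± 5.77 CPM in SiSFPQ and 28.7 ± 6.27 CPM in SiCtrl (SD, n = 3 each). Its lowest SiSFPQ library, at 37.5 CPM, was just above its highest SiCtrl library, at 35.9 CPM. The log2 fold change was 0.62 ± 0.18 (SE; edgeR, adjusted p = 0.0013), and over the alternatives the adjusted p ran from 3.5e-04 to 0.081, which came from DESeq2 on all genes. DESeq2 on the genes tested with edgeR kept the call of ENSG00000303769 (adjusted p = 0.036). A gene listed over CRNDE, ENSG00000286357, had 0 counts in all libraries. No other gene of the table had a listed span over OIP5-AS1 or within 10 kb of it. Some listed spans, such as that of DANCR, are shorter than the listed exonic length, so listed spans may miss part of a gene.

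TUG1 is reported only through 2 genes that lie over it on the opposite strand, inside its RefSeq span (GRCh38.p14, chromosome 22, 30969265 to 30979395, plus strand). RefSeq classes TUG1 as protein coding. ENSG00000269987 (30976515 to 30978848) had 219, 230 and 240 CPM in SiSFPQ libraries and 179, 188 and 162 CPM in SiCtrl libraries, a log2 fold change of 0.39 ± 0.08 (SE; edgeR, adjusted p = 1.2e-05). ENSG00000269972 (30977516 to 30977858), which lies within it, had 88.6, 86.0 and 69.2 CPM in SiSFPQ and 54.2, 65.2 and 60.6 CPM in SiCtrl. Its log2 fold change was 0.43 ± 0.13 (SE; edgeR, adjusted p = 0.0020), and over the alternatives the adjusted p of ENSG00000269972 ran from 3.3e-04 to 0.092, which came from DESeq2 on all genes. DESeq2 on the genes tested with edgeR kept the call (adjusted p = 0.045). Both were higher in every SiSFPQ library than in any SiCtrl library, where 54.0% of tested genes had groups apart in either direction. All 546 exonic bases of ENSG00000269987 and all 264 of ENSG00000269972 in GENCODE 29 lie within exons of TUG1, and the part of TUG1 reads in their counts was not tested.

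**Figure D5:**
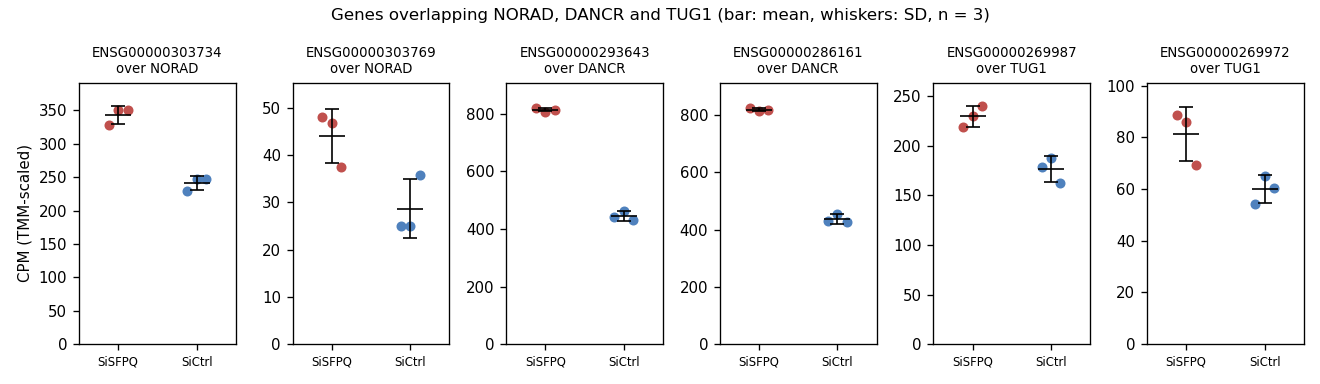
TMM-scaled CPM per library (points, SiSFPQ left of SiCtrl) of the 6 tested genes that lie over NORAD, DANCR and TUG1, with mean ± SD over 3 libraries and axes from 0. All 6 lie higher in SiSFPQ without overlap, by the widest gap at DANCR. The groups do not overlap, in either direction, for 54.0% of tested genes. Genes at the same locus lie over one another, and how many reads they share was not tested.

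Other long RNAs were looked at as a list of 22 names drawn up for cytoplasmic roles, though where each acts was not checked. Of the names, 15 were tested. Of these, 8 rose, 4 fell and 3 were not called, with a median log2 fold change of 0.18, where all tested genes had 24.5% higher, 24.0% lower and a median of 0.01. The imprinted RNA H19 fell to 46.6, 51.7 and 31.0 CPM in SiSFPQ libraries, against 156, 132 and 160.0 CPM in SiCtrl libraries, a log2 fold change of -1.79 ± 0.12 (SE; edgeR, adjusted p = 1.4e-49). GAS5, a host of small nucleolar RNAs like DANCR, averaged 2486 ± 114 CPM in SiSFPQ and 1731 ± 55.7 CPM in SiCtrl (SD, n = 3 each) and rose by 0.52 on the log2 scale (edgeR, adjusted p = 4.3e-28). CYTOR rose by 0.45 (edgeR, adjusted p = 8.7e-15) and EPB41L4A-AS1 by 0.61 (edgeR, adjusted p = 2.2e-13).

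A second list held 28 names drawn up for roles at chromatin or in the nucleus, again without such a check, and 17 were tested. In it 4 rose, 5 fell and 8 were not called, with a median log2 fold change of -0.01. Of all tested genes, 24.5% were higher and 24.0% lower, with a median of 0.01. The nuclear speckle RNA MALAT1 had a log2 fold change of -1.27 and the paraspeckle RNA NEAT1 one of -0.59 (edgeR, adjusted p = 7.3e-204 and 9.6e-49). MIR22HG, a microRNA host, averaged 41.1 ± 7.41 CPM in SiSFPQ and 82.2 ± 8.34 CPM in SiCtrl (SD, n = 3 each), at -1.02 (edgeR, adjusted p = 1.1e-12). JPX, an RNA of the X inactivation centre, averaged 316 ± 3.41 CPM in SiSFPQ and 213 ± 7.03 CPM in SiCtrl (SD, n = 3 each), at 0.57 (edgeR, adjusted p = 3.1e-13). As in the 4 members, changes in both lists ran in both directions, and nothing particular to either list is read from the counts.

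The genes most like each member were found among 875 named genes of at least 50 CPM that lie outside the member loci. Likeness was the root mean square difference, over the 6 libraries, of log2 CPM taken relative to the SiCtrl mean. For DANCR these were HSDL2-AS1 (0.0622), GUCY2C-AS1 (0.0638) and FOXD2-AS1 (0.0698), with log2 fold changes of 0.88, 1.00 and 0.95. For OIP5-AS1 they were GASK1B-AS1 (0.0193), RPSAP52 (0.0515) and LOXL2-AS1 (0.0598), with log2 fold changes of -0.84, -0.84 and -0.79. For NORAD they were PVT1 (0.0262), DUXAP9 (0.0322) and MCM3AP-AS1 (0.0335), at 0.25, 0.26 and 0.22, and for CRNDE LINC00973 (0.0453), SLC16A1-AS1 (0.0611) and MAP3K2-DT (0.0647), at 0.39, 0.44 and 0.42. The likeness rests mainly on the difference between the 2 groups and is a description only.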

How the data were processed

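Poly(A)-selected RNA was sequenced from stranded libraries, per the labels' protocols. The values deposited are unnormalized counts of reads for each gene. No aligner, counting program or annotation is given in the sources used here. Of 13886 gene IDs shared with GENCODE 29 (GRCh38), 13874 overlapped their position there, so coordinates were read as GRCh38. None of the 8 coding cell type markers looked for was analysed here.

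From the counts, edgeR 4.0.16 in R 4.3.3 was run on all 6 libraries: filterByExpr (6325 of 35036 genes kept), TMM factors, and robust quasi-likelihood fits by group, tested in both directions, with p-values adjusted by Benjamini-Hochberg over every tested gene at 0.05. The SE of a log2 fold change was its size divided by the root of the F statistic. The fit was tested on simulated data. Pair ratios used a pseudocount of 0.5 and an exact permutation test (scipy 1.17.1). DESeq2 1.42.0 and limma 3.58.1 served as alternatives. Library pairs within a group differed beyond sampling noise (chi-square over its degrees of freedom 1.24 to 1.40), so none was counted as a duplicate.

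Named genes were the members, the list genes with the 4 smallest adjusted p of each list, tested genes over a member or within 10 kb, and the 3 genes most like each member. The TUG1 locus was added after the data were seen. The members and lists were chosen with earlier results of these data known. Pairs numbered 6 and not the planned 10, with 4 members tested.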

Additional observations from a re-analysis of the deposited data

How the results depend on the processing

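Under all alternatives run the 4 members kept their direction and their call in all 64 values. The log2 fold change ran from 0.90 to 0.99 for DANCR, 0.36 to 0.48 for CRNDE, 0.23 to 0.32 for NORAD and -0.90 to -0.77 for OIP5-AS1, and the largest adjusted p were 1.5e-28, 0.0031, 1.4e-04 and 2.1e-22. The highest value of each came from plain library totals, which moved the median of all tested genes to 0.072. DESeq2 called 854 genes higher and 899 lower, against 1547 and 1516 with edgeR, and 1013 higher and 1074 lower on the genes that edgeR tested; the cause was not tested. Same-numbered libraries did not deviate together (correlations of -0.0037, 0.001 and 0.0067), and with the replicate block 1535 genes were higher and 1515 lower, DANCR stood at 0.93, CRNDE at 0.42, NORAD at 0.25 and OIP5-AS1 at -0.84. Of 688 values of 43 genes under alternatives, among them all called list genes, 674 kept direction and call, 14 lost the call and 0 reversed. Those 14 were 7 of PURPL, 4 of UCA1 and 1 each, under DESeq2 on all genes, of PINCR, ENSG00000303769 and ENSG00000269972. UCA1 lost its call without SiCtrl replicate 2 (edgeR, adjusted p = 0.22) and without SiSFPQ replicate 1 (0.082), and PURPL without SiCtrl replicate 1 (0.10), SiSFPQ replicate 2 (0.071) or SiSFPQ replicate 3 (0.12). With a library left out, 1382 to 1464 genes were higher and 1378 to 1440 lower. Pair differences and the summed share kept their direction, that of CRNDE over NORAD running from 0.11 without SiSFPQ replicate 1 to 0.23 without SiSFPQ replicate 3. DESeq2 on the filtered genes and scaling from genes without overlap of a coding gene were chosen after seeing the data. ENSG00000303769 and ENSG00000269972 held 316 and 614 counts over all libraries.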

Other observations

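Some further called genes of the same 2 lists are given as values, chosen after their levels were seen. Of all tested genes, 24.5% were called higher and 24.0% lower. Other called genes of the lists are not described here. Among them were LUCAT1 at 0.61 and DLEU2 at -0.5 on the log2 scale (edgeR, adjusted p = 3.3e-12 and 1.0e-05). SNHG16, a host of small nucleolar RNAs, had 3856 ± 76.7 CPM in SiSFPQ and 3079 ± 153 CPM in SiCtrl (SD, n = 3 each), and ZFAS1, another such host, 2629 ± 40.1 CPM in SiSFPQ and 2220 ± 77.2 CPM in SiCtrl. On the log2 scale SNHG16 rose by 0.32 (edgeR, adjusted p = 1.2e-12) and ZFAS1 by 0.24 (edgeR, adjusted p = 4.7e-07). BACE1-AS, antisense to the secretase gene BACE1, had 113 ± 0.597 CPM in SiSFPQ and 171 ± 16.5 CPM in SiCtrl, at -0.59 on the log2 scale (edgeR, adjusted p = 2.9e-09). Among RNAs of the HOX clusters, HOTAIRM1 had 99.4 ± 8.99 CPM in SiSFPQ and 64.3 ± 9.18 CPM in SiCtrl, and HOTAIR 137 ± 13.6 CPM in SiSFPQ and 179 ± 12.2 CPM in SiCtrl. The log2 fold changes were 0.63 (edgeR, adjusted p = 5.4e-07) for HOTAIRM1 and -0.38 (edgeR, adjusted p = 1.2e-04) for HOTAIR.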
